A study of Mus musculus with 10 samples.

Results

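Interferon regulatory factors (IRFs) are a family of transcription factors, and 7 genes of the family were followed here in hearts of mice given lipopolysaccharide (LPS): Irf1, Irf2, Irf3, Irf5, Irf7, Irf8 and Irf9. They were taken by gene symbol and were 7 of the 30074 genes in the expression table. All hearts came from male wild-type C57BL/6 mice aged 8 to 12 weeks and weighing about 25 g, which received LPS by intraperitoneal injection to produce the heart dysfunction of sepsis. In the LPS+ART group (n = 5) the mice also received artesunate, an antimalarial derived from artemisinin, at 50 mg/kg into the peritoneum, with the first dose 10 min ahead of LPS and the second 4 h later than LPS. The LPS+Vehicle group (n = 5) is labelled as given LPS and vehicle, and cardiac function was assessed 24 h after LPS. Hearts without LPS were not analysed here, so every comparison is between artesunate and vehicle in mice that all had LPS, and none shows what LPS itself did.

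All IRFs share a DNA-binding domain that reads repeats of GAAA, and they differ in what switches them on. IRF3 and IRF7 wait in the cytoplasm until kinases downstream of Toll-like receptors and nucleic-acid sensors phosphorylate them, after which they drive type I interferon genes. IRF9 is the DNA-binding subunit of the complex ISGF3, which carries the interferon signal to the genome, while IRF1 is itself made on demand after interferon gamma and is opposed by the constitutive IRF2. IRF5 acts below the adaptor MyD88 on inflammatory cytokine genes, and IRF8 is a lineage factor of monocytes and dendritic cells. Much of IRF3, IRF5 and IRF7 activity is set by phosphorylation, which transcript levels do not measure.

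Expression was measured by RNA sequencing of heart RNA and is given in FPKM, a read number per kilobase of gene and per size of the library, so levels can be compared between genes. The labels do not tie each library to an animal, so n counts libraries, and a heart named below stands for a library. The LPS+ART libraries held 30684056 to 36679402 reads and the LPS+Vehicle libraries 29980900 to 54222272. The tissue label was checked with 10 cardiomyocyte markers, whose summed level was 7873 to 9876 FPKM with artesunate and 6871 to 7418 FPKM with vehicle. The groups lay apart on the leading principal component, with 75.1% of the variance. On the second, LPS+ART replicates 3 and 4 stood at -20.2 and -16.3 and the other 3 LPS+ART libraries at 12.8 to 15.3. LPS+Vehicle replicates 2 and 5 were nearly alike, with a chi-square of 1.75 per degree of freedom against 13.6 to 48.6 in the other pairs within a group. Mitochondrial genes took 24.7 to 30.3% of reads in LPS+ART, highest in replicates 3 and 4, against 21.04 to 23.76% in LPS+Vehicle, and their part in the results was not tested. Most genes were lower in LPS+ART as deposited, with a median log2 fold change of -0.27 over the 13314 genes tested, and rescaling the libraries brought this median to 0.02. Results for the IRFs are therefore given as deposited and after scaling by the median ratio of gene levels or by cyclic loess, a smooth correction along expression level.

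Irf7, which amplifies the interferon response, was the most abundant member in both groups, and the order below it differed. In LPS+ART the mean levels ran Irf7, Irf1, Irf9, Irf8, Irf3, Irf5 and Irf2 from high to low, and the ranges of the neighbours from Irf8 to Irf2 overlapped. In LPS+Vehicle they ran Irf7, Irf9, Irf1, Irf3, Irf2, Irf5 and Irf8, and Irf5 and Irf8 were the neighbours whose ranges overlapped. Irf8 was thus the lowest member in vehicle hearts and the fourth highest in artesunate hearts. Irf4, a lymphocyte factor of the same family, had means of 0.148 FPKM in LPS+ART and 0.172 FPKM in LPS+Vehicle, below the mean of 0.5 FPKM required for testing.

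**Figure D1:**
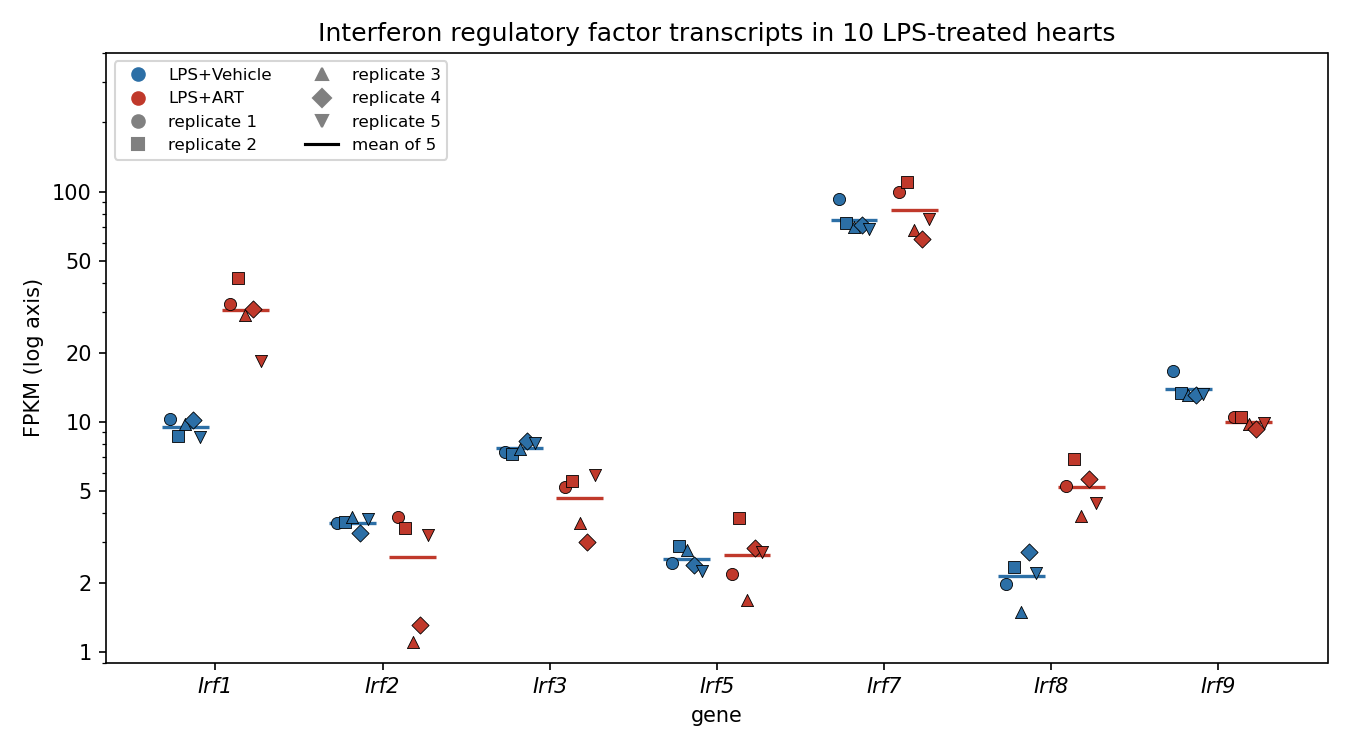
FPKM of each of the 7 members on log axes in the 5 LPS+ART and 5 LPS+Vehicle libraries, 1 point per library with a bar at each group mean. The groups do not overlap for Irf1 and Irf8, higher in LPS+ART, or for Irf3 and Irf9, lower as deposited, and they overlap for Irf2, Irf5 and Irf7.

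The 7 members summed to 139 ± 30.6 FPKM with artesunate and 115 ± 11.8 FPKM with vehicle (SD, n = 5 each), with ranges of 115 to 183 and 107 to 136. A single scaling factor per library leaves the share of each member in that sum as it is, which cyclic loess does not. Irf1 held 22.1 ± 4.5% of it in LPS+ART and 8.31 ± 0.693% in LPS+Vehicle, with ranges of 15.2 to 26.8% and 7.59 to 9.13% that did not overlap. Irf8 took 3.80 ± 0.642% and 1.89 ± 0.456%. Irf9 took 7.40 ± 1.18% in LPS+ART and 12.1 ± 0.284% in LPS+Vehicle, and Irf3 3.38 ± 0.874% and 6.78 ± 0.843%. The largest share remained that of Irf7, at 59.6 ± 3.71% and 65.5 ± 1.88%. Irf2 held 1.82 ± 0.768% and 3.20 ± 0.376%, and Irf5 1.92 ± 0.495% and 2.24 ± 0.335%. These shares add to a fixed total, so a larger share of one member lowers those of the others.

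**Figure D2:**
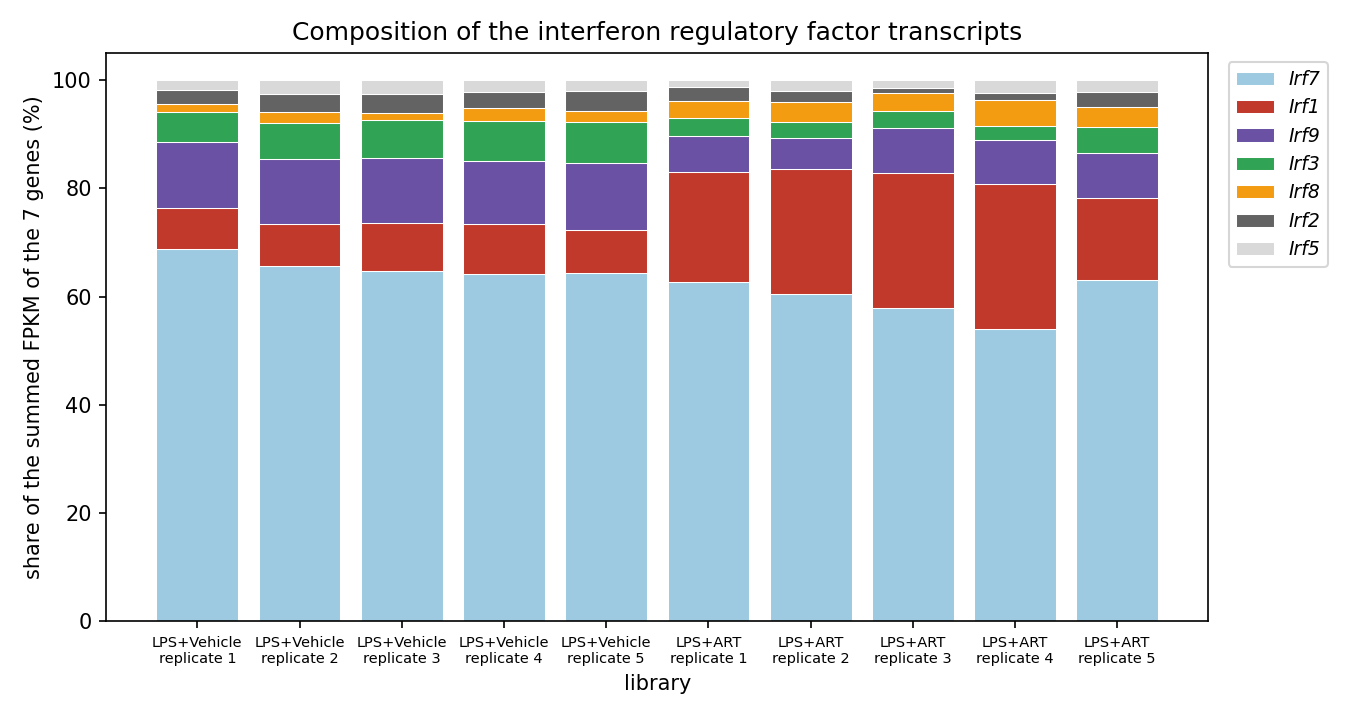
Share of each of the 7 members in their summed FPKM, in percent, as a stacked bar for each of the 10 libraries. The Irf1 block spans 15.2 to 26.8% of the LPS+ART bars and 7.59 to 9.13% of the LPS+Vehicle bars, and Irf7 is the largest block in every bar.

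All 7 members passed the filter on low values. As deposited, Irf1 and Irf8 rose and Irf3 and Irf9 fell with artesunate, while Irf2, Irf5 and Irf7 did not pass the test, an adjusted p under 0.05 in limma over all genes tested. These 2 of 7 higher calls stood against 11.8% of all genes tested, and the 2 of 7 lower calls against 52.9%. The count of lower members is below the background share, and with 7 members neither count sets the family apart. The same 4 genes had groups that did not overlap, where the background was 7.54% of genes higher and 42.5% lower. After median-ratio scaling, Irf1, Irf7 and Irf8 were higher and Irf3 was lower, against 30.1% of genes higher and 30.1% lower. After cyclic loess, Irf1, Irf5 and Irf8 were higher and Irf3 was lower, against 29% higher and 28.7% lower. The calls of Irf1, Irf8 and Irf3 were thus made under all 3 of these scalings, and those of Irf9, Irf7 and Irf5 were not.

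**Figure D3:**
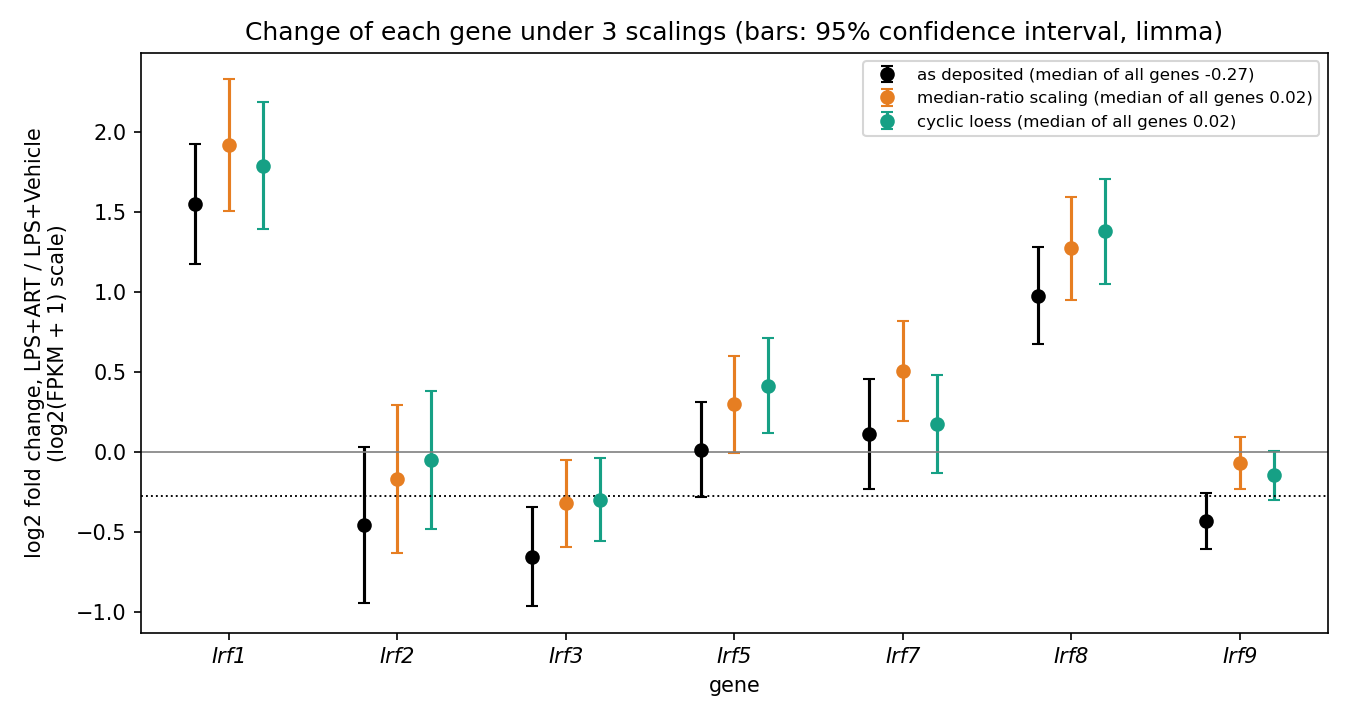
Log2 fold change of each member, LPS+ART against LPS+Vehicle on the log2(FPKM + 1) scale, with its 95% interval, as deposited and after median-ratio and cyclic loess scaling. Irf1 and Irf8 lie above 0 under all 3 scalings and Irf3 below it, while the interval of Irf9 reaches 0 after rescaling.

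Irf1, the interferon-gamma-induced activator of antigen presentation and chemokine genes, rose the most of the members. It stood at 32.5, 42.2, 29.2, 30.8 and 18.3 FPKM in LPS+ART replicates 1 to 5 and at 10.3, 8.65, 9.75, 10.2 and 8.60 FPKM in LPS+Vehicle replicates 1 to 5. The lowest artesunate library, replicate 5, lay above the highest vehicle library, and the artesunate hearts were far more spread than the vehicle hearts. The means were 30.6 ± 8.53 and 9.49 ± 0.817 FPKM (SD, n = 5 each), 3.22-fold higher, with a log2 fold change of 1.55 (SE 0.17, limma adjusted p = 2.04e-05). The value was 1.92 after median-ratio scaling and 1.79 after cyclic loess. Each LPS+ART library gave it 2670 to 5243 reads and each LPS+Vehicle library 1138 to 2102. An antisense gene, Gm17334, covers 3.4% of the exon bases of Irf1 and had 0.926 and 0.358 FPKM, and the strand setting of the counting is not given in the sources used here. In bulk tissue, a change in the number of cells that express a gene and a change in RNA per cell cannot be told apart, here and in every result that follows.

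Irf2, which competes with IRF1 for the same sites, did not pass the test. It stood at 3.87, 3.47, 1.11, 1.31 and 3.23 FPKM in LPS+ART replicates 1 to 5 and at 3.62, 3.68, 3.85, 3.30 and 3.77 FPKM in LPS+Vehicle replicates 1 to 5. Artesunate replicates 3 and 4 lay far below all other hearts, and the other 3 artesunate libraries were among or close to the vehicle values. The log2 fold change was -0.45 (SE 0.22, limma adjusted p = 0.0944), with a 95% interval of -0.94 to 0.035. Without those 2 libraries it was -0.04 (limma adjusted p = 0.662), and without artesunate replicate 1 alone it was -0.58 (limma adjusted p = 0.0350). Replicates 3 and 4 were also the lowest artesunate libraries for Irf3, Irf7 and Irf9, which makes 4 of the 7 members against 36.3% of all genes tested. The same pair was highest in LPS+ART for 8 of 9 neutrophil markers tested, against 1398 of all 13314 genes tested. The part of neutrophils in the IRF values was not tested.

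The promoters of Irf1, Irf2 and Irf8 are shown because they hold letters that match the gamma-activated sequence (GAS). GAS is the element through which interferon gamma switches on its early genes, and a match of letters does not show that it works. The windows run from 250 bases before to 50 bases after an annotated start, from RefSeq on GRCm38.p6, which is not the build named for the expression data. All 7 members were matched by symbol, with 10 windows in all. The letters searched were TTCNNNGAA, which reads the same on both strands, and, for the IRF core, GAAANNGAA on both strands. Capitals mark the GAS letters. The Irf1 window is chr11:53769764-53770063, that of Irf8 chr8:120736108-120736407 and that of Irf2 chr8:46739495-46739794, all on the plus strand and written 5′ to 3′.
Irf1: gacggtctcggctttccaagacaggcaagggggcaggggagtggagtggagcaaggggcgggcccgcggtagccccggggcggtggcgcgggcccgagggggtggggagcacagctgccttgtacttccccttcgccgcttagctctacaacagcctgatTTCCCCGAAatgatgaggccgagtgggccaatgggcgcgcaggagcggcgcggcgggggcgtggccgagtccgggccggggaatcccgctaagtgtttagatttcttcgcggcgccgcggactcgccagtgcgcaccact
Irf8: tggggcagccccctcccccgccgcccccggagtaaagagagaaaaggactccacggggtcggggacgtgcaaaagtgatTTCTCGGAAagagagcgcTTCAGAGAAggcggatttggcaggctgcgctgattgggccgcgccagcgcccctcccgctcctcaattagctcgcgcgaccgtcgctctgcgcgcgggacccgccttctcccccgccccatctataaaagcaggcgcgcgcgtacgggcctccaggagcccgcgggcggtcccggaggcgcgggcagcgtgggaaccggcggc
Irf2: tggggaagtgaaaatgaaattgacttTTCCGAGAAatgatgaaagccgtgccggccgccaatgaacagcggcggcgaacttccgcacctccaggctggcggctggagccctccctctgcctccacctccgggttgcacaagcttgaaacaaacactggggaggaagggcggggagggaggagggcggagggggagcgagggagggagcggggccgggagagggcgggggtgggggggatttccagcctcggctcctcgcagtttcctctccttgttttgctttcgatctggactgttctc
The GAS letters began at -90 from the start in Irf1, at -171 and -153 in Irf8 and at -224 in Irf2. They were in 3 of the 10 member windows and in 8.3% of the 32851 promoter windows of all genes. At least 2 such stretches, as in Irf8, were in 0.457% of all windows. The IRF core letters were in 1 member window, that of Irf2 at -241, against 8.56% of all windows. In the windows of Irf3, Irf5, Irf7 and Irf9 these letters were not found, which says nothing about other elements or other positions. Of the 3 genes with GAS letters, Irf1 and Irf8 rose and Irf2 did not pass the test, and no binding was measured.

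Irf3, the ubiquitous factor that starts type I interferon production after Toll-like receptor signals through TRIF, fell. It stood at 5.22, 5.54, 3.65, 2.99 and 5.86 FPKM in LPS+ART replicates 1 to 5 and at 7.41, 7.22, 7.60, 8.24 and 8.08 FPKM in LPS+Vehicle replicates 1 to 5. Every artesunate heart lay below every vehicle heart, and replicates 3 and 4 lay lowest. The means were 4.65 ± 1.26 and 7.71 ± 0.437 FPKM (SD, n = 5 each), 1.66-fold lower, with a log2 fold change of -0.65 (SE 0.14, limma adjusted p = 0.00167). It was -0.32 after median-ratio scaling (limma adjusted p = 0.0435) and -0.30 after cyclic loess (limma adjusted p = 0.0485). With replicates 3 and 4 left out it was -0.41 as deposited (limma adjusted p = 0.0008), and with scaling added -0.12 (limma adjusted p = 0.210), no longer called. The antisense neighbour Bcl2l12 covers 2.56% of the exon bases of Irf3 and had 0.567 FPKM in LPS+ART and 2.06 FPKM in LPS+Vehicle, so without strand a small part of the Irf3 reads may belong to it.

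Irf7, the interferon-induced partner of IRF3 that amplifies type I interferon, did not pass the test as deposited. It stood at 100, 110.4, 67.8, 62.2 and 75.7 FPKM in LPS+ART replicates 1 to 5 and at 93.1, 72.8, 70.5, 71.6 and 68.6 FPKM in LPS+Vehicle replicates 1 to 5. Artesunate replicates 1 and 2 lay above all vehicle hearts and replicates 3 and 4 below them, so the artesunate range enclosed the vehicle range. The log2 fold change was 0.12 (SE 0.16, limma adjusted p = 0.534), with a 95% interval of -0.23 to 0.46. After median-ratio scaling it was 0.51 (limma adjusted p = 0.00965) and after cyclic loess 0.17 (limma adjusted p = 0.295). Whether Irf7 was higher therefore depended on the scaling. Phrf1, on the opposite strand, covers 1.19% of the exon bases of Irf7 and had 4.30 FPKM in LPS+ART and 4.22 FPKM in LPS+Vehicle.

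Irf9, the DNA-binding subunit of ISGF3, fell as deposited. It stood at 10.5, 10.5, 9.78, 9.29 and 9.93 FPKM in LPS+ART replicates 1 to 5 and at 16.7, 13.4, 13.1, 13.0 and 13.2 FPKM in LPS+Vehicle replicates 1 to 5. The artesunate values lay close together below all vehicle values, and vehicle replicate 1 stood above the other vehicle hearts. Rnf31, on the same strand, covers 2.28% of the exon bases of Irf9 and had 7.30 FPKM in LPS+ART and 8.15 FPKM in LPS+Vehicle. Strand would not tell their reads apart there. The means were 10.0 ± 0.516 and 13.9 ± 1.58 FPKM (SD, n = 5 each), 1.39-fold lower, with a log2 fold change of -0.43 (SE 0.08, limma adjusted p = 0.000566). After median-ratio scaling the value was -0.07 (limma adjusted p = 0.460) and after cyclic loess -0.15 (limma adjusted p = 0.0986). Its partner in that complex, Stat2, rose from 15.8 ± 1.23 to 25.4 ± 2.34 FPKM (SD, n = 5 each; log2 fold change 0.65, limma adjusted p = 4.2e-05).

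Irf5, which drives inflammatory cytokine genes in myeloid cells, did not pass the test as deposited. It stood at 2.18, 3.81, 1.68, 2.83 and 2.72 FPKM in LPS+ART replicates 1 to 5 and at 2.44, 2.88, 2.79, 2.39 and 2.24 FPKM in LPS+Vehicle replicates 1 to 5. Artesunate replicate 2 was the highest of all hearts and replicate 3 the lowest, and the rest were mixed. The log2 fold change was 0.02 (SE 0.14, limma adjusted p = 0.928), with a 95% interval of -0.28 to 0.31. It was 0.30 after median-ratio scaling (limma adjusted p = 0.0808) and 0.42 after cyclic loess (limma adjusted p = 0.0208). Only 150 to 439 reads per library lay behind these values, the fewest of the members. The antisense gene Tnpo3, a nuclear import receptor, covers 14.2% of the exon bases of Irf5 and had 2.87 and 4.27 FPKM, so its reads may be part of the Irf5 values.

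Irf8, the lineage factor of monocytes and dendritic cells, rose. It stood at 5.26, 6.93, 3.91, 5.62 and 4.43 FPKM in LPS+ART replicates 1 to 5 and at 1.98, 2.33, 1.5, 2.72 and 2.20 FPKM in LPS+Vehicle replicates 1 to 5. All artesunate hearts lay above all vehicle hearts. The means were 5.23 ± 1.16 and 2.15 ± 0.452 FPKM (SD, n = 5 each), 2.44-fold higher, with a log2 fold change of 0.98 (SE 0.14, limma adjusted p = 9.69e-05). It was 1.27 after median-ratio scaling and 1.38 after cyclic loess.

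Markers of the cells in which Irf8 is best known were mostly lower in LPS+ART. Of 18 monocyte and macrophage markers, 17 were tested, 14 were lower and 1, Ly6c2, an inflammatory monocyte marker, was higher, with a median log2 fold change of -0.85 against -0.27 for all genes. After median-ratio scaling 10 were lower and 2 higher. Of all genes tested, 52.9% were lower as deposited and 30.1% after that scaling. Their summed level was 82.7 to 143 FPKM in LPS+ART and 191 to 349 FPKM in LPS+Vehicle. Set against this sum, Irf8 stood at 3.09 to 8.37% in LPS+ART and at 0.429 to 1.42% in LPS+Vehicle. Set against Csf1r, the macrophage growth factor receptor, its ratio was 1.57 to 4.34 and 0.178 to 0.576. Irf5 stood at 1.41 to 4.60% of the same marker sum in LPS+ART and at 0.798 to 1.25% in LPS+Vehicle. Set against the leukocyte markers Ptprc and Laptm5, however, the Irf5 ratios overlapped between the groups, at 2.96 to 13.2 against 2.89 to 4.06 for Ptprc and 0.310 to 0.985 against 0.248 to 0.363 for Laptm5. Like the shares, these ratios are free of a single factor per library but not of cyclic loess, and they do not say which cells held the Irf8 transcripts.

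**Figure D4:**
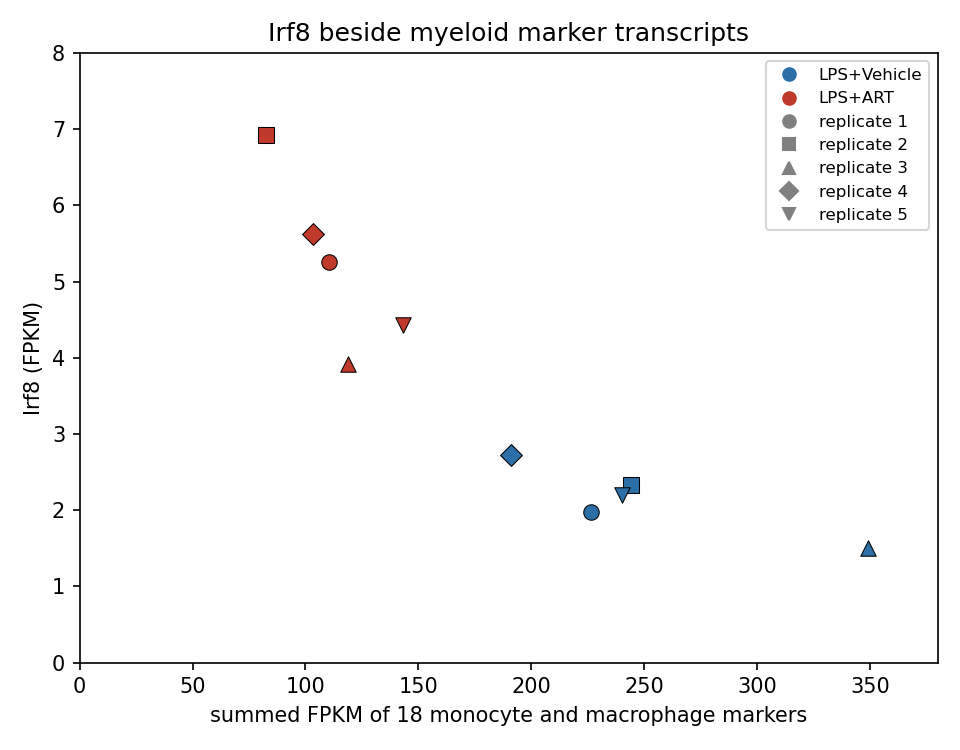
Irf8 FPKM against the summed FPKM of 18 monocyte and macrophage markers, 1 point per library. The LPS+ART libraries lie at 82.7 to 143 FPKM of markers and the LPS+Vehicle libraries at 191 to 349, with the higher Irf8 values on the lower marker side.

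Other cell types that could bring IRF transcripts were measured in the same way. Of 10 dendritic cell markers 2 were tested and both were lower, with a sum of 2.42 to 3.88 FPKM with artesunate and 6.07 to 7.61 FPKM with vehicle. Batf3, a dendritic cell transcription factor below the filter on average, went the other way, with 0.307 to 1.16 FPKM in LPS+ART and 0.0918 to 0.132 FPKM in LPS+Vehicle. Siglech, a plasmacytoid dendritic cell marker, was listed at 0 in all LPS+ART libraries, and Cd209a at 0 in all LPS+Vehicle libraries. None of 12 B and T cell markers reached the filter, with sums of 0.801 to 1.52 and 0.827 to 1.22 FPKM. Of 9 neutrophil markers tested, 1 was higher and 2 lower, with sums of 35.5 to 301 and 31.3 to 75.5 FPKM. Of 10 endothelial markers 1 was higher and 7 lower, of 8 fibroblast markers 4 were lower and none higher, and of 10 cardiomyocyte markers 4 were higher and 2 lower. These counts are as deposited, where 11.8% of all genes tested were higher and 52.9% lower. After median-ratio scaling, with 30.1% each way, 3 endothelial markers were higher and 4 lower. The fibroblast counts stayed the same, and 7 cardiomyocyte markers were higher and 1 lower. The part of these cell types in the IRF results was not tested.

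Ratios between members within a library do not depend on a single scaling factor per library, although cyclic loess would alter them, and all 21 pairs were compared with a two-sided exact permutation test over the 10 libraries. The smallest p this design can give is 0.00794, and 14 pairs passed at a Benjamini-Hochberg adjusted p under 0.05 over the 21. The pairs share members, so they are not independent. Pairs of other genes were not compared, and 11.8% of all genes tested were higher and 52.9% lower as deposited. The count of pairs therefore does not set the family apart. The ratio of Irf1 to its antagonist Irf2 was 12.9 in LPS+ART, with a range of 5.67 to 26.4, and 2.60 in LPS+Vehicle, with a range of 2.28 to 3.08. The difference was 2.31 on the log2 scale (exact permutation adjusted p = 0.0128). It was 1.68 without artesunate replicates 3 and 4, the hearts low in Irf2. Irf1 also gained against Irf3, with a log2 difference of 2.42, against Irf9 with 2.11, against Irf5 with 1.64 and against Irf7 with 1.53, all with the same adjusted p, the smallest found.

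Irf1 and Irf8, the members that rose, differed less from each other. Their log2 ratio changed by 0.36 (exact permutation adjusted p = 0.147), which did not pass the test. With 1 FPKM added to every value it was 0.57 and passed (exact permutation adjusted p = 0.0333). Irf8 gained against Irf9 by 1.75, and Irf3 lost against Irf8 by -2.06 on the log2 scale. Irf2 against Irf8 changed by -1.95, Irf5 against Irf8 by -1.27 and Irf7 against Irf8 by -1.17.

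Among the interferon-activated factors, Irf7 gained against Irf9. The ratio was 8.12 in LPS+ART, with a range of 6.70 to 10.6, and 5.42 in LPS+Vehicle, with a range of 5.18 to 5.58. In vehicle hearts this ratio was tightly held, with an SD of 0.04 on the log2 scale, although replicate 1 was high for both genes. The log2 difference was 0.58 (exact permutation adjusted p = 0.0128). Irf3 lost against its partner Irf7 by -0.89 and against Irf5 by -0.78, both called. Irf2 against Irf7 changed by -0.79 (exact permutation adjusted p = 0.0238), which without artesunate replicates 3 and 4 was -0.38 (exact permutation adjusted p = 0.0703). That call was also lost without vehicle replicate 2, 3, 4 or 5, with adjusted p of 0.0595 to 0.0714 in the exact permutation test. The pairs of Irf3 with Irf9, at -0.31, and of Irf2 with Irf3, at 0.11, did not pass (exact permutation adjusted p = 0.176 and 0.683). Without artesunate replicates 3 and 4, Irf2 with Irf3 was 0.43 and passed (exact permutation adjusted p = 0.025). Nor did Irf2 with Irf5, at -0.68, Irf2 with Irf9, at -0.20, Irf5 with Irf7, at -0.11, and Irf5 with Irf9, at 0.48. Of these, Irf2 with Irf9 was 0.37 and passed without artesunate replicates 3 and 4 (exact permutation adjusted p = 0.025). Irf2 with Irf5 passed without artesunate replicate 1, at -0.92 (exact permutation adjusted p = 0.0119), and Irf5 with Irf9 without artesunate replicate 3, at 0.62 (exact permutation adjusted p = 0.0333).

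**Figure D5:**
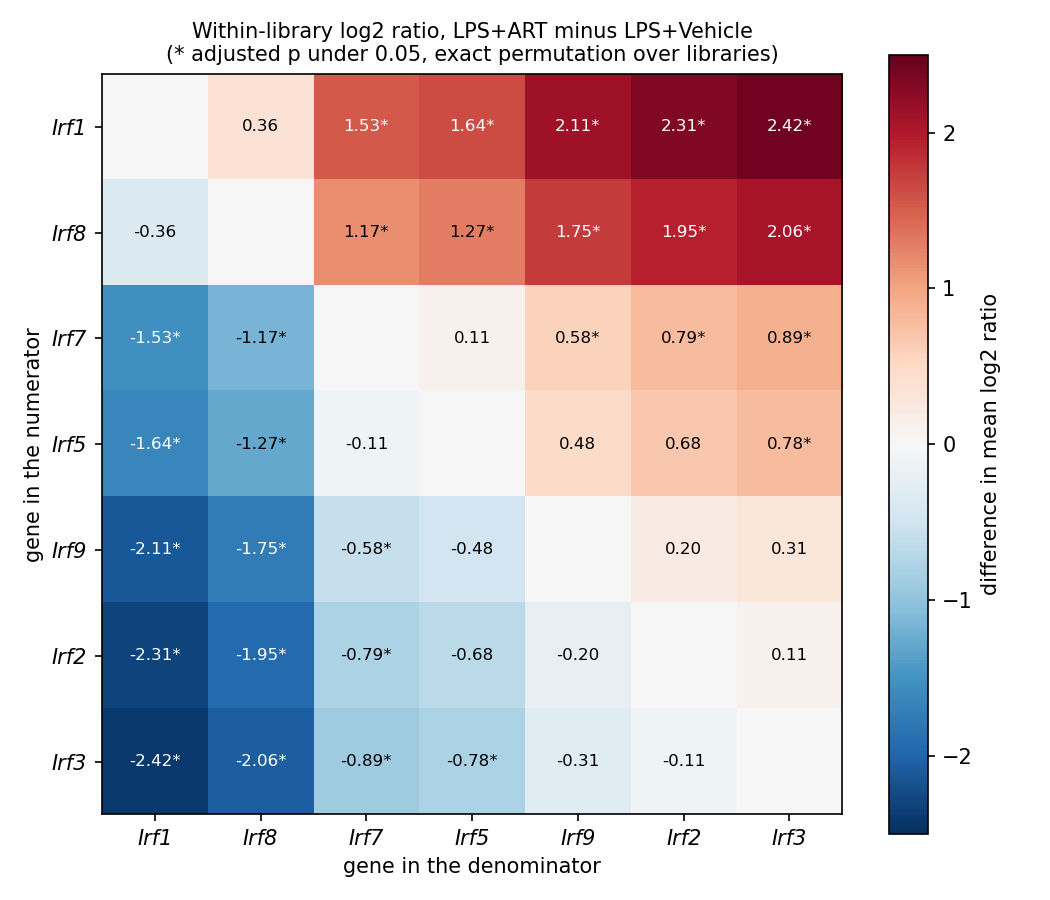
Heat map of the difference in mean within-library log2 ratio, LPS+ART minus LPS+Vehicle, for each pair of members, with the numerator gene in rows and the denominator gene in columns; a star marks an adjusted p under 0.05 in the exact permutation test. The row of Irf1 holds the largest gains, 2.42 against Irf3 and 2.31 against Irf2, and no star against Irf8, at 0.36.

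Upstream of the IRFs, 20 sensors, adaptors and kinases were listed and 18 tested, of which 3 rose and 10 fell, with a median log2 fold change of -0.27, that of all genes. Tbk1, the kinase that phosphorylates IRF3 and IRF7, rose from 13.4 to 22.6 FPKM (log2 fold change 0.71), while the related kinase Ikbke fell by 0.75 on the log2 scale. Myd88 rose by 0.67 and Traf6, a ubiquitin ligase below it, by 0.59 on the log2 scale. Ticam1, which encodes TRIF, the adaptor between TLR4 and IRF3, changed by -1.0, and Mavs, the adaptor of the RNA sensors, fell from 18.1 to 5.35 FPKM, a log2 fold change of -1.61. After median-ratio scaling 7 of these genes were higher and 5 lower. For this and the next lists, the shares over all genes tested were 11.8% higher and 52.9% lower as deposited, and 30.1% each way after that scaling.

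Interferon transcripts themselves were near the limit of detection. Ifnb1 lay between 0 and 0.171 FPKM in LPS+ART and between 0 and 0.0866 in LPS+Vehicle, and Ifng reached at most 0.0464 and 0.0502 FPKM. Of 13 interferon, receptor and JAK-STAT genes 11 were tested, 1 was higher, Stat2, and 5 were lower, with a median log2 fold change of -0.36. After median-ratio scaling 5 were higher and 4 lower. The receptor chain Ifngr2 changed by -1.63 on the log2 scale, the kinase Tyk2 by -1.25 and the shared receptor chain Il10rb by -0.73.

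Among 12 proteins that bind or restrain IRFs or their signals, 5 rose and 3 fell, with a median log2 fold change of 0.03, and 8 were higher and 1 lower after median-ratio scaling. Otud1, a deubiquitinase, rose by 3.68, and the cytokine signalling inhibitors Socs3 and Socs1 by 2.26 and 1.74 on the log2 scale. Irf2bp1, a corepressor that binds IRF2, fell by 0.90 on the log2 scale. Irf2bpl, a related protein, fell by 0.58 and Ptpn11, a phosphatase, by 0.38 on the log2 scale as deposited. Neither was called after median-ratio scaling, and Ptpn11 was called lower after cyclic loess (limma adjusted p = 0.00529).

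The lists of known targets overlap in their members, so their counts are not separate evidence. Beside them, 11.8% of all genes tested were higher and 52.9% lower as deposited, and 30.1% each way after median-ratio scaling. Of 28 ISGF3 targets, Irf7 and Stat2 among them, 13 rose and 4 fell, with a median log2 fold change of 0.44 against -0.27 for all genes, and 20 were higher and 1 lower after median-ratio scaling. The antiviral genes Rsad2, Mx2 and Ifit1 rose by 1.76, 1.39 and 1.33 on the log2 scale, while Ifi27l2a fell by 1.68 on that scale. Oas2 and Oas3, which sense viral RNA, fell by 0.48 and 0.39 on the log2 scale as deposited and were not called after scaling. These targets stood beside an Irf9 that fell as deposited and did not pass the test after scaling.

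Of 29 IRF1 targets 26 were tested, 12 rose and 1 fell, with a median log2 fold change of 0.50, and 18 were higher and 1 lower after median-ratio scaling. Cd274, which encodes the checkpoint ligand PD-L1, rose by 3.73, and the T cell chemokines Cxcl10 and Cxcl9 by 3.26 and 1.79 on the log2 scale. Tnfsf10, the death ligand TRAIL, fell by 1.26 on that scale. Of 12 early IRF3 targets 11 were tested, and 8 rose and none fell as deposited and after median-ratio scaling. The median was 0.86 as deposited, while Irf3 itself was lower. Cxcl10, Rsad2 and Ifit1 had the largest rises in that list as well. For both lists, the shares over all genes tested were 11.8% higher and 52.9% lower as deposited, and 30.1% each way after median-ratio scaling.

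Of 9 IRF5 targets 6 were tested, 2 rose and none fell, with a median log2 fold change of 0.11. The risen genes were the cytokine Il6, by 3.39, and the chemokine Ccl5, by 0.86 on the log2 scale, and 3 were higher after median-ratio scaling. Of 14 myeloid IRF8 targets 9 were tested, 3 rose and 4 fell, with a median of -0.18, and 3 were higher and 2 lower after median-ratio scaling, or 2 and 4 after cyclic loess. Those that rose were the survival gene Bcl2l1, by 0.60, Cd74, the MHC class II chaperone, by 0.60, and Cst3, a protease inhibitor, by 0.21 on the log2 scale. Clec9a, a dendritic cell receptor, fell by 1.12, Ncf1, a subunit of the phagocyte oxidase, by 0.67 and Klf4, a monocyte transcription factor, by 0.61 on the log2 scale. Klf4 was not called after median-ratio scaling (limma adjusted p = 0.0938). Over all genes tested, 11.8% were higher and 52.9% lower as deposited, 30.1% each way after median-ratio scaling, and 29% and 28.7% after cyclic loess. With 6 IRF5 targets and 9 IRF8 targets tested, these counts do not set either list apart from all genes.

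For each member, the genes with the most similar profile over the 10 libraries were found by the root-mean-square difference of log2 values, each gene taken about its own mean. The closest to Irf1 were Parp9 and Rnf115, at 0.20 and 0.205, and to Irf8 Daxx and Wdfy1, at 0.13 and 0.132. Irf7 lay closest to Tap2 and Parp12, at 0.104 and 0.111. Nearest to Irf3 were Kctd9 and Ptpa, at 0.059 and 0.062, and to Irf9 Gsta4 and Zfyve9, at 0.068 and 0.072. Irf2 lay closest to Dbnl and Pdzd11, at 0.132 and 0.142, and Irf5 to Nfkb1 and Lmo2, at 0.133 and 0.138. The closest match to Irf1 was thus looser than that to Irf3 or Irf9, on a scale that also grows with the spread of the gene itself.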

How the data were processed

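Paired-end libraries had been made from oligo-dT selected heart RNA, per the labels' protocols. The genome build is mm9, per the submitters' processing notes, and for the aligner, counter, annotation and strand the details were not given in the sources used here. The authors deposited FPKM values, a unit read from the values themselves. Read numbers recovered from them with GENCODE M21 gene lengths were whole, within 0.01 read, for 29004 genes, and for Irf1 with a searched length. They give depth and served limma-voom as an alternative, and since mates appear to be counted apart, reads are not independent.

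Symbols came from M21 for 29538 of the 30074 gene identifiers. The test was limma-trend (limma 3.58.1, R 4.3.3) on log2(FPKM + 1) of the 13314 genes averaging 0.5 FPKM or more, with group as the only term, no scaling, and Benjamini-Hochberg adjusted p under 0.05 as the call. Log2 fold changes keep that pseudocount and so understate low genes, and folds in words are ratios of mean FPKM. Ratios and shares were computed in Python 3.11.15 without a pseudocount. Beyond group sizes the labels do not tie each replicate to an animal, so p-values measure the spread between these samples. The code was tested on simulated data.

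The members, the 9 pathway lists and the 7 marker lists were chosen with earlier results of these data known. Named genes are the members, up to 3 higher and 3 lower calls with the largest change per pathway list, Stat2, Tbk1, Ifnb1, Ifng and Irf4, and the 2 genes most like each member among 5479 averaging 5 FPKM or more. A few further genes under this rule are not reported here. Marker genes, overlapping genes and ratio denominators outside this rule (Ly6c2, Csf1r, Ptprc, Laptm5, Batf3, Siglech, Cd209a, Gm17334, Bcl2l12, Tnpo3, Phrf1 and Rnf31) were chosen after their values were seen. Alternatives were limma-voom on recovered reads, other scalings, pseudocounts and filters, a stricter threshold, a replicate block and each library left out. The removal of LPS+ART replicates 3 and 4, and the shares, were chosen after the data were seen.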

Additional observations from a re-analysis of the deposited data

Results flagged for a closer look

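LPS+Vehicle replicate 1 stood apart from its group for Irf7, which amplifies type I interferon, and for Irf9, the DNA-binding subunit of ISGF3. For Irf7 it had 93.1 FPKM and the nearest vehicle library 72.8, a gap of 0.827 of the range of the group. For Irf9 it had 16.7 FPKM and the nearest 13.4, a gap of 0.902. Both exceed Dixon's 95% critical value for 5 samples, which chance passes in about 1 in 20 of groups, and 14 groups were examined. The flags are not separate, since the log2 ratio of Irf7 to Irf9 had an SD of only 0.04 in LPS+Vehicle. The same library was the highest of the vehicle hearts for Irf1 and for 16 of the 28 ISGF3 targets, Irf7 among them, against 17.2% of all genes tested. Without it the log2 fold change of Irf9 was -0.37 and still passed the test (limma adjusted p = 0.000933), and that of Irf7 was 0.19 and did not (limma adjusted p = 0.311). What sets this heart apart was not tested.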

How the results depend on the processing

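Irf1 and Irf8 stayed higher and called in limma under all 24 alternatives run. The calls of Irf2, Irf3, Irf5, Irf7 and Irf9 each changed under at least 1. Higher members numbered 2 as deposited and 5 with LPS+ART replicates 3 and 4 left out and median-ratio scaling. Irf2 reversed to 0.23 on the log2 scale in that setting. Of all genes tested, 1565 of 13314 were higher as deposited and 3670 of 13381 in that setting. Lower members numbered 2 as deposited, 1 after median-ratio, trimmed mean or cyclic loess scaling, and 0 with scaling and either those 2 libraries left out or a replicate block. Of all genes tested, 7037 were lower as deposited and 3827 after cyclic loess. Of 103 other pathway genes tested, 37 were higher and 27 lower as deposited. Higher pathway genes numbered 59 after median-ratio scaling, 60 after trimmed mean scaling, 61 with scaling and the block and 65 with scaling and without those 2 libraries. Lower pathway genes numbered 14, 14, 14 and 16. In the same order, 4004, 4066, 3907 and 3670 of all genes tested were higher, and 4014, 3970, 3854 and 3755 were lower. The causes were not tested. Called pairs numbered 13 to 15 with 1 library left out, 13 with the nearly alike vehicle libraries averaged and 16 with a pseudocount of 1. Without LPS+ART replicates 3 and 4 the Irf2 to Irf9 ratio reversed to 0.37 on the log2 scale.

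Same-numbered libraries correlated at -0.07 to 0.182 in their deviations from the group means. Weak correlations of this kind cannot decide whether the replicate numbers pair the samples. With the replicate block alone, 2 members were higher and 2 lower, and no member's call changed. The block left 0 of 21 pairs called, since 32 sign flips cannot give a p below 0.0625. With limma-voom on the recovered reads, 2 members were higher and 2 lower, and all 7 kept their calls. Irf5 rests on the fewest reads.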
